A study of Mus musculus with 6 samples.

Results

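Bone marrow-derived macrophages lacking Foxo1 (KO) were set against floxed controls (WT) after 24 hours in IL-4 and IL-13, the treatment that gives the alternatively activated or M2 state. The comparison rests on the 2 arrays whose labels name this state, of 6 arrays in all, with 1 array for each genotype. KO cells came from LysMcre FoxO1 Fl/Fl mice and WT cells from FoxO1 Fl/Fl mice, all on the C57BL/6 strain. Marrow cells of both genotypes were grown for 7 days with 10% L929-conditioned medium, and the M2 cells were then given both cytokines, each at 10 ng/ml. The other 4 arrays hold KO and WT cells without cytokine (M0) and KO and WT cells given LPS at 100 ng/ml and interferon-gamma at 20 ng/ml for 24 hours (M1). Only KO cells carried Cre, which is driven from the myeloid gene Lyz2, so that loss of Foxo1 and the presence of Cre cannot be told apart. Nothing in the labels says how many mice gave each RNA, and all differences below are between single arrays, with no replicate check and no p-value.

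FoxO1 is a forkhead transcription factor that is active in the nucleus until insulin or growth factor signalling through PI3K and AKT moves it to the cytoplasm, and its known targets include genes of cell cycle arrest, stress resistance and metabolism. IL-4 and IL-13 act through IL-4 receptor alpha and the transcription factor STAT6. In mouse macrophages they induce the arginase Arg1, secreted proteins such as Retnla and the chitinase-like Chil3, lectin receptors, and MHC class II.

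Of 27361 gene names on the array, 17782 had a probe well above background on both M2 arrays. Each gene is given as a scaled signal, the background-corrected brightness of its probe with the 75th percentile of the array set to 100, followed by the KO minus WT difference on the log2 scale. Brightness depends on the probe, so that signals are compared between arrays and not between genes. By the rule used here, a gene was called where the difference was at least 2-fold. In KO M2 cells 403 genes were called higher (2.27% of the genes measured) and 708 lower (3.98%). At 4-fold, 44 were higher (0.247%) and 51 lower (0.287%). The median difference was -0.06, and 43.8% of genes were higher in KO by any amount. Among 175 probes that were spotted 10 times and well above background, the difference varied between spots with a median SD of 0.0911 and at most 0.911, which measures spots of 1 hybridisation and not biological replicates. Calls were more frequent among dim genes, with 129 higher and 263 lower among the dimmest 4446 genes and 57 higher and 59 lower among the brightest 4446. Where a called gene had a further probe well above background (232 genes), that probe had the same sign for 199, was also at least 2-fold apart for 89, and was 2-fold apart the opposite way for 0.

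**Figure D1:**
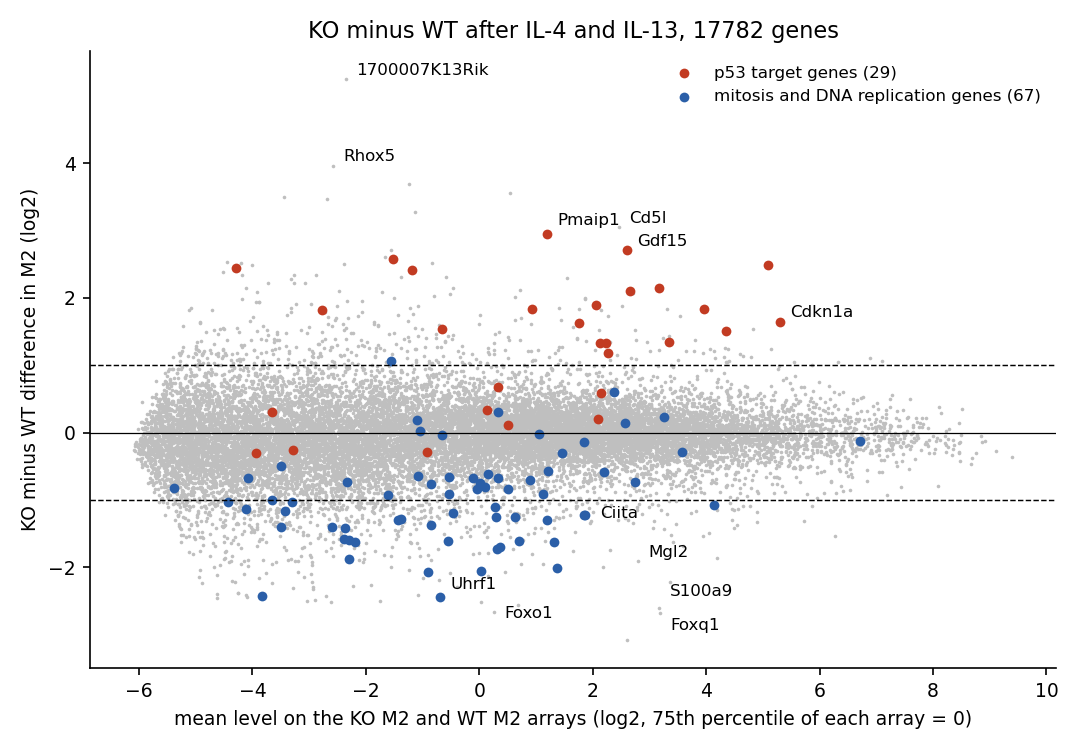
KO minus WT difference in M2 (log2, vertical axis) against the mean level of the KO M2 and WT M2 arrays (log2, 75th percentile of each array at 0, horizontal axis) for 17782 genes. Grey points are all genes, red points the 29 measured p53 target genes, blue points the 67 measured mitosis and DNA replication genes, and dashed lines the 2-fold rule. Most red points lie above the upper line and most blue points lie below 0.

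Foxo1 itself was among the 3 genes furthest below WT. Its scaled signal was 47.6 in KO M2 and 302 in WT M2, a difference of -2.67, so that the KO signal was 6.34-fold lower. The loss was of like size in the other pairs, with 39.5 in KO M0 and 302.1 in WT M0, and 30.5 in KO M1 and 209.9 in WT M1. The probe that gave these values is a 60-base oligo at chr3:52150183-52150242 on the plus strand of mm9, shown here because it is the direct measure of the deleted gene.
Foxo1 probe: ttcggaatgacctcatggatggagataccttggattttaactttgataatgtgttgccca

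A further Foxo1 probe at chr3:52153289-52153348 gave a difference of -2.91. Which exons were deleted is not given in the labels. The other family members were not called: Foxo3 had 14.5 in KO M2 and 12.6 in WT M2 (difference 0.20), Foxo4 had 11.2 on both arrays (0.00), and Foxo6 did not reach that level of signal on either array. Lyz2, the lysozyme gene whose locus carries Cre, had 20610 in KO M2 and 35660 in WT M2 (difference -0.79), but a further Lyz2 probe gave -0.02, so that the 2 probes disagree. Genes known as FoxO targets did not share a direction. Of 34 measured, 4 were at least 2-fold higher and 3 lower, against 2.27% and 3.98% of all genes, with a median of 0.03. Among the lower ones were Pik3ip1, which restrains PI3K (21.7 in KO M2, 62.6 in WT M2, difference -1.53), the stress protein gene Sesn3 (37.3 and 81.4, -1.13) and the death ligand gene Tnfsf10 (2.98 and 6.04, -1.02). The higher ones, Sesn2, Gadd45a, Cdkn1a and Bbc3, are also known to respond to p53.

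Genes activated by p53, the transcription factor that answers DNA damage with arrest or cell death, had the highest median difference of the 52 gene lists examined. Of 29 measured members, 20 were at least 2-fold higher in KO M2, 0 were lower and 26 were higher by any amount, against 2.27% called higher among all genes. Their median difference was 1.54, against -0.06 for all genes. Summed over the members, the scaled signal was 34180 in KO M2 and 10040 in WT M2. The members were chosen with earlier results of these data known. Sesn1, also known as a p53 target but not in the list, had a difference of -0.58 in M2. Its further probes gave -0.33 and -0.27.

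Cdkn1a, Ccng1 and Gtse1, cell cycle regulators of the group, were higher in KO. Cdkn1a, which encodes the cyclin-dependent kinase inhibitor p21, had 6945 in KO M2 and 2214 in WT M2 (difference 1.65). Ccng1, cyclin G1, had 3443 in KO M2 and 1212 in WT M2 (1.51). Gtse1, a regulator of p53 in G2 phase, had 84.8 in KO M2 and 14.2 in WT M2 (2.58). The genes that promote apoptosis stood the same way. Pmaip1, which encodes the BH3-only protein NOXA, had 637.9 in KO M2 and 82.4 in WT M2 (2.95), the highest difference of the list. Bbc3, which encodes PUMA, had 1614 and 633.6 (1.35), and Bax, the pore-forming member of the family, had 729.4 and 321.9 (1.18). The death receptor gene Tnfrsf10b had 27.4 in KO M2 and 7.79 in WT M2 (1.82), while Fas, another death receptor gene, was not called. The feedback and stress members were higher as well. Mdm2, the ubiquitin ligase that degrades p53, had 1315 in KO M2 and 306.1 in WT M2 (2.10), and its further probe gave 1.72. Phlda3, which inhibits AKT at the membrane, had 8058 and 1434 (2.49), and Sesn2, an inhibitor of mTORC1 signalling, had 1896 and 426.3 (2.15). The circulating stress cytokine gene Gdf15 had 1556 in KO M2 and 238.7 in WT M2 (2.70). Trp53inp1, Ddit4, Aen, Psrc1, Eda2r, Polk, Ei24, Zmat3 and 4632434I11Rik (now Ddias) make up the rest of the 20, with differences of 1.33 to 2.44. Perp, a further target, was well above background on the KO M2 array and not on the WT M2 array. The members that were not called were Fas (0.67), Plk2 (0.59), Apaf1, 9630033F20Rik (now Tigar), Btg2, Xpc, Rrm2b, Ddb2 and Ckap2, the last at -0.31. All 14 members that had a further probe well above background kept the sign of the difference on it.

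The list was also higher in KO in the pairs that share no array with the M2 pair. Over the 27 members measured on all 6 arrays, 19 were called higher in M2, 15 in M0 (against 5.53% of all genes called higher there) and 11 in M1 (against 9.14%), and 0 were 2-fold lower in any pair. The medians were 1.54 in M2, 1.12 in M0 and 0.88 in M1. WT M0 and WT M1 were hybridised on slide 1, and KO M0, KO M1, KO M2 and WT M2 on slide 2, so that in M0 and M1 genotype and slide cannot be told apart, while the M2 pair lies within 1 slide.

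**Figure D2:**
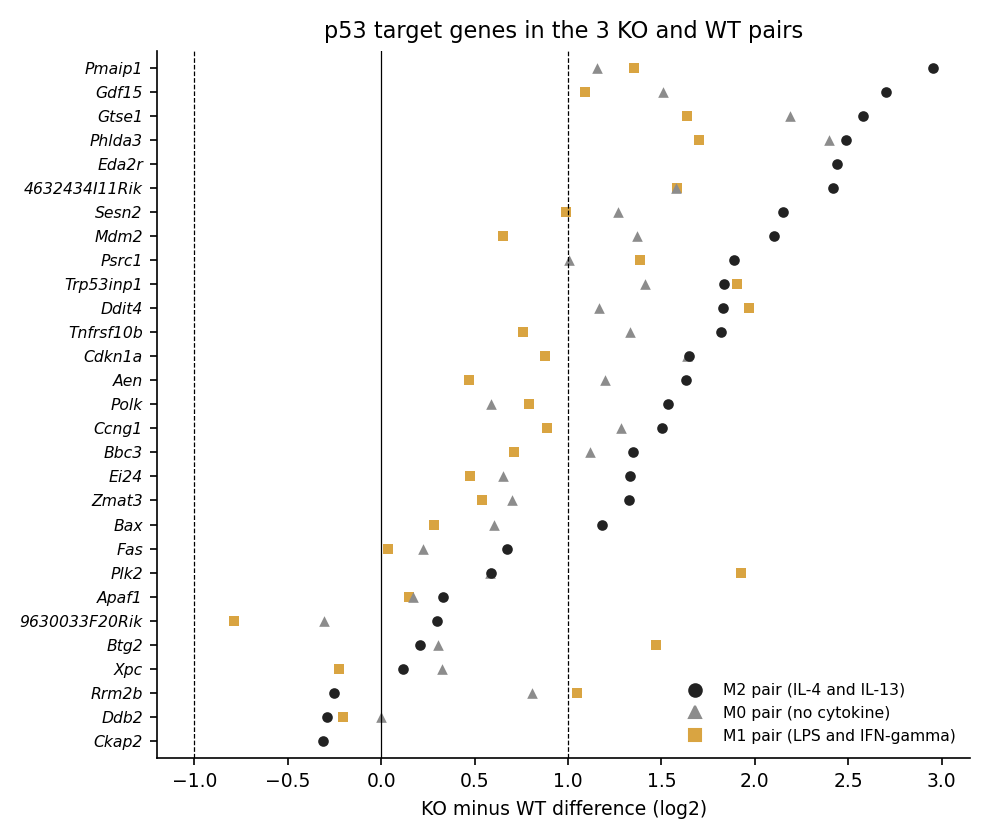
KO minus WT difference (log2, horizontal axis) of the 29 measured p53 target genes in the M2 pair (black circles), the M0 pair (grey triangles) and the M1 pair (ochre squares); M0 and M1 are drawn only for genes measured on all 6 arrays, and dashed lines mark 2-fold. The black circles run from -0.31 for Ckap2 to 2.95 for Pmaip1, and 20 lie right of the upper line.

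Mdm2 also lies near the Cre allele. Its probe at chr10:117126278-117126337 (mm9) lies 411.8 kb from the Lyz2 probe. Slc35e3, a solute carrier gene whose probe lies 456.3 kb from that of Lyz2, was also higher in KO (difference 1.27). Of 49 measured genes within 5 Mb of Lyz2, 4 were called higher and 3 lower, with a median of 0.07. Whether flanking sequence of the Cre allele plays a part was not tested.

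Genes of mitosis were lower in KO M2. Of 31 measured, 20 were at least 2-fold lower and 1 higher, against 3.98% called lower among all genes, and the median difference was -1.19. With normexp background correction and quantile normalization 8 were lower and the median was -0.80. Their summed scaled signal was 1711 in KO M2 and 3887 in WT M2. In KO M0, WT M0, KO M1 and WT M1 the sum was 2005, 2758, 2414 and 1857. WT M2 was thus the highest and KO M2 the lowest of the 6 arrays. Fewer dividing cells and less RNA per dividing cell cannot be told apart in such bulk RNA. Ccna2, the cyclin of S and G2 phase, had 26.2 in KO M2 and 110.4 in WT M2 (difference -2.08). Cdk1, the kinase that drives entry into mitosis, had 24.5 in KO M2 and 59.9 in WT M2 (-1.29). Its partner Ccnb1 had 6.19 in KO M2 and 13.9 in WT M2 (-1.16). The KO signals were thus lower for both the kinase and its cyclins. The proliferation marker Mki67 had 145.6 in KO M2 and 358.1 in WT M2 (-1.30), and its further probe gave -1.37. Birc5 and Cdca8, subunits of the chromosomal passenger complex with the kinase Aurkb, had 141.8 in KO M2 and 438.1 in WT M2 (-1.63), and 127.8 in KO M2 and 517.9 in WT M2 (-2.02), while a further Cdca8 probe gave -0.55. Prc1, which bundles the microtubules of the central spindle, had 71.4 in KO M2 and 231.4 in WT M2 (-1.70). Top2a, the topoisomerase that untangles chromosomes, had 11.1 in KO M2 and 33.3 in WT M2 (-1.58), and Foxm1, a forkhead factor that drives G2 genes, had 11.8 and 31.6 (-1.42). The exception was Hmmr, a hyaluronan receptor that also binds the spindle, with 49.0 in KO M2 and 23.5 in WT M2 (1.06). Kif2c, Cdc25c and Ttk were well above background on the WT M2 array alone, as was the probe that represents Anln, while a further Anln probe gave -1.16.

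Genes of DNA replication moved less. Of 36 measured, 12 were at least 2-fold lower, against 3.98% of all genes, and 0 were higher. By any amount 32 were lower, with a median of -0.72. Uhrf1, which carries DNA methylation to the new strand, had 26.7 in KO M2 and 144.9 in WT M2 (-2.44). The nucleotide enzymes Tk1 and Rrm2 were lower too, with 50.2 in KO M2 and 208.2 in WT M2 for Tk1 (-2.05), and 10.5 in KO M2 and 38.8 in WT M2 for Rrm2 (-1.88). Of the MCM helicase genes, Mcm5 had 92.4 in KO M2 and 283.3 in WT M2 (-1.62), Mcm7 had 236.2 and 549.6 (-1.22), and Mcm6 had 1211 and 2560 (-1.08). E2f2, a factor that activates S-phase genes, had 67.9 in KO M2 and 225.2 in WT M2 (-1.73). Among cyclins and inhibitors of G1, Cdkn1a and Cdkn1c, which encodes p57, were higher (184.6 in KO M2 and 55.2 in WT M2 for Cdkn1c, 1.74), and Ccnd2, cyclin D2, was lower (28.8 and 63.7, -1.14).

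The cell cycle genes differed less in the other pairs. Over the 29 mitosis genes measured on all 6 arrays, 19 were called lower in M2, 1 in M0 (against 3.73% of all genes called lower there) and 0 in M1 (against 1.07%), while 1, 1 and 4 were called higher, and the medians were -1.19, -0.44 and 0.21. For 35 DNA replication genes the medians were -0.70 in M2, -0.39 in M0 and 0.07 in M1. The difference between the pairs was not tested, and the slide of the WT array changes with the pair.

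**Figure D3:**
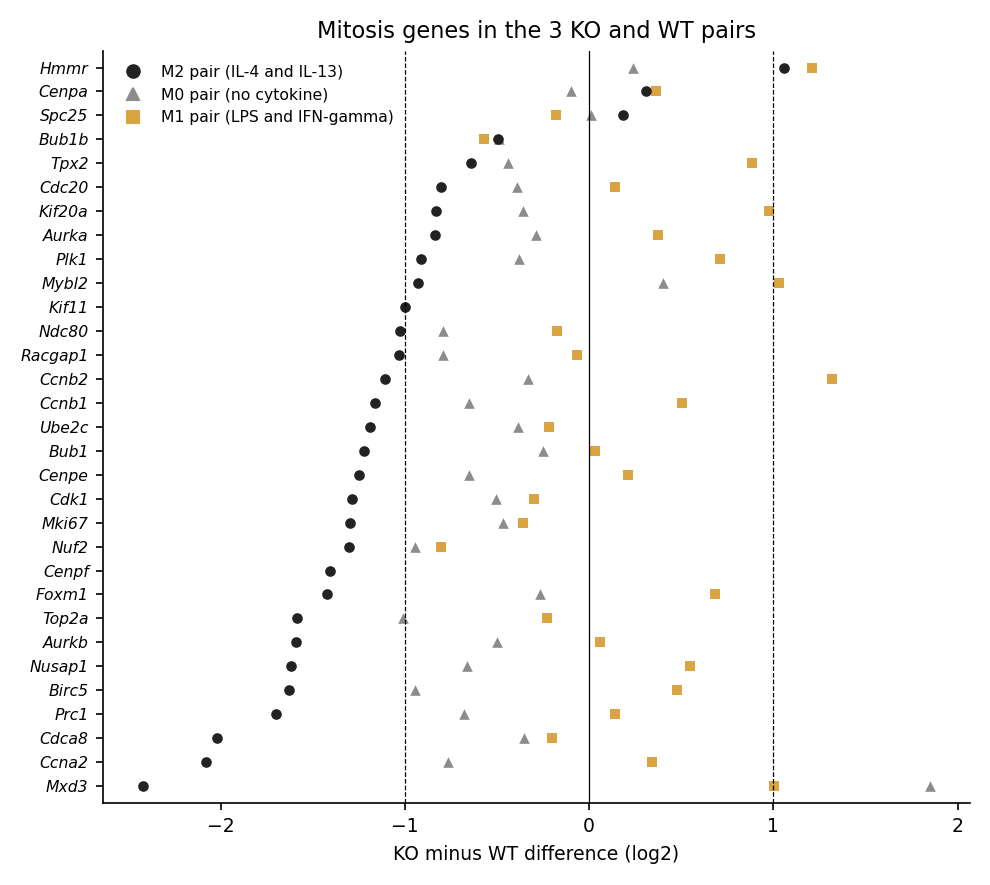
KO minus WT difference (log2, horizontal axis) of the 31 measured mitosis genes in the M2 pair (black circles), the M0 pair (grey triangles) and the M1 pair (ochre squares); M0 and M1 are drawn only for genes measured on all 6 arrays, and dashed lines mark 2-fold. In M2, 20 genes lie left of the lower line, and most of the grey and ochre points lie to the right of the black ones.

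Promoters of the cell cycle genes, taken from RefSeq on GRCm38.p6 as 250 bases before and 50 after the start, held known cell cycle elements. The cell cycle homology region, searched as TTTGAA on both strands, was in 18 of 26 mitosis genes with a promoter in the table (69.2%), against 15.3% of 11628 measured genes with one and 20.2% of all 27025 genes. Sites of E2F factors, searched on both strands as TTTGGCG and as TTCCCGC, were in 31% and 41.4% of 29 replication genes, against 2.73% and 8.81% of measured genes. Among members at least 2-fold apart, TTTGAA was in 61.1% of 18 mitosis genes, and the E2F letters in 40% and 30% of 10 replication genes. Of all 454 lower genes with a promoter, 20% held TTTGAA, 3.08% TTTGGCG and 9.03% TTCCCGC, which is near the shares of measured genes for the E2F letters. The letters GTAAACA, the core of the FoxO site, were in 2.42% of 454 lower genes and 5.53% of 199 higher genes with a promoter, against 3.29% of measured genes. A match of letters is a description and not a site of binding. The following windows upstream of the start carry the element in capitals, for 3 mitosis and 3 replication genes that were lower in KO M2.
Prc1, TTTGAA, chr7:80294421-80294475, plus strand: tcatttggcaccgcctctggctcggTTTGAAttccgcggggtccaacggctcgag
Mki67, TTTGAA, chr7:135716447-135716502, minus strand: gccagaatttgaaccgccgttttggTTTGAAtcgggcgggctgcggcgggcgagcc
Cdk1, TTTGAA, chr10:69352913-69352952, minus strand: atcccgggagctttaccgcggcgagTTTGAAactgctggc
Mcm5, TTTGGCG read on the other strand, chr8:75109336-75109392, plus strand: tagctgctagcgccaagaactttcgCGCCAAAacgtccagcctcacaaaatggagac
Mcm6, TTTGGCG, chr1:128359721-128359777, minus strand: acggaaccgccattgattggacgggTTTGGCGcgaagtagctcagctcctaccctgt
Uhrf1, TTCCCGC, chr17:56303264-56303320, plus strand: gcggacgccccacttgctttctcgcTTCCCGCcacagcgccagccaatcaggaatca

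Histone genes divided. Of 36 measured, 10 were at least 2-fold higher in KO M2 and 4 lower, against 2.27% and 3.98% of all genes, with a median of 0.11. The lower ones were Hist1h2ab and the linker histone genes Hist1h1b, Hist1h1e and Hist1h1a, with Hist1h2ab at 270.4 in KO M2 and 905.7 in WT M2 (-1.74). Of the 10 higher genes, 8 are H2B genes or pseudogenes: Hist1h2bq, Hist3h2ba, Hist1h2bc, Hist1h2bp, Hist3h2bb-ps, Hist1h2bm, Hist1h2bk and Hist2h2be, with the others Hist1h4i and the linker histone gene Hist1h1c. Hist1h4i had 642.9 in KO M2 and 131.2 in WT M2 (2.29), and Hist1h2bc had 2249 and 869.1 (1.37). Histone genes are near-identical in sequence, and a probe may take up RNA of several.

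The IL-4 response itself was present in both genotypes. Arg1 had 5317 in KO M2 and 8017 in WT M2 (difference -0.59), against 1.64 in KO M0 and 7.60 in WT M0. Retnla had 28730 in KO M2 and 36280 in WT M2 (-0.34), against 34.4 in KO M0 and 3.58 in WT M0. Chi3l3, the file's name for Chil3, had 29980 in KO M2 and 35690 in WT M2 (-0.25). These 3 genes were far brighter after the cytokines in both genotypes and were not called between them. WT M0 lies on another slide than WT M2, so that only the rise in KO lies within 1 slide. The mannose receptor gene Mrc1 had 3372 and 3605 (-0.10), the beta-glucan receptor gene Clec7a had 31780 and 30610 (0.05), and the transglutaminase gene Tgm2 had 4927 and 4402 (0.16). The receptor side was likewise not called, with Il4ra at 442.8 in KO M2 and 466.3 in WT M2 (-0.07), Stat6 at 853.5 and 785.1 (0.12), Il13ra1 at 15.2 and 9.75 (0.64), and Jak1, Jak2, Jak3 and Tyk2 between -0.24 and 0.22.

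A subset of effector genes was lower in KO. Of 26 measured, 7 were at least 2-fold lower and 0 higher, against 3.98% and 2.27% of all genes, with a median of -0.30. Over the 23 measured on all 6 arrays, 7 were lower and 0 higher in M2. In M0, without cytokine, 8 were lower and 2 higher, against 3.73% and 5.53% of all genes. In M1 2 were lower and 5 higher, against 1.07% and 9.14%. The medians were -0.44 in M2, -0.33 in M0 and 0.28 in M1. Mgl2, a galactose-type lectin of alternatively activated macrophages and dendritic cells, had 357.8 in KO M2 and 1340 in WT M2 (-1.91). Flt1, VEGF receptor 1, had 667.9 in KO M2 and 2158 in WT M2 (-1.69). The eosinophil chemoattractant gene Ccl24 had 616.1 in KO M2 and 1770 in WT M2 (-1.52), and its further probe gave -1.54. All 3 were brighter in M2 than in M0 in KO cells too, with Mgl2 at 8.17 in KO M0 and 10.9 in WT M0. Ear11, a ribonuclease gene of a family of near-identical members, had 4547 in KO M2 and 13260 in WT M2 (-1.54). Ocstamp and Dcstamp, which mediate fusion of macrophages and osteoclasts, had 412.5 in KO M2 and 1048 in WT M2 (-1.35), and 346.4 in KO M2 and 849.5 in WT M2 (-1.29). Ptgs1, cyclooxygenase 1, had 1520 in KO M2 and 3366 in WT M2 (-1.15). At the other end of the list stood Il1rn, the interleukin-1 receptor antagonist gene, with 207.9 in KO M2 and 114.9 in WT M2 (0.85), Mmp12 (0.68) and Slc7a2 (0.60), none called. Fn1 (-0.82), Matk (-0.58), Clec10a (-0.54), Pdcd1lg2 (-0.44), Ch25h (-0.27), Atp6v0d2 (-0.11), Ccl17 (-0.09), Cdh1 (0.01), Chi3l4 (0.06) and Cd36 (0.28) lay between them, and Ccl22 and Alox15 were not well above background on either array.

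Among 16 transcription factors and feedback regulators of the response, 3 were called, all lower, against 3.98% of all genes called lower. By any amount 12 were lower (median -0.54). Batf3, an AP-1 family factor, had 1459 in KO M2 and 3768 in WT M2 (-1.37). Ppargc1b, a coactivator of mitochondrial genes, had 393.7 in KO M2 and 967.5 in WT M2 (-1.30), and Myc had 221 in KO M2 and 480.3 in WT M2 (-1.12). Mitf (-0.94), Socs1 (-0.88), Irf4 (-0.87), Kdm6b (-0.77), Klf4 (-0.56), Pparg (-0.52), Egr2 (-0.48), Cish (-0.27) and Jun (-0.16) were below WT without reaching the rule, and Bcl6 (0.03), Tfec (0.04), Bhlhe40 (0.24) and Rxra (0.35) were at or above it. Of the receptor and signalling list only Socs2, a cytokine-induced inhibitor of signalling, was called (460.5 in KO M2, 1023 in WT M2, -1.15). The remaining members were Irs1 (-0.86), Socs3 (-0.77), Il2rg (-0.73), Inpp5d (-0.43) and Ptpn6 (-0.19).

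A wider set was taken by the response itself. At least 4-fold more signal in M2 than in M0 was seen in both genotypes for 106 genes, and of these 26 were at least 2-fold lower in KO M2 (24.5%) and 2 higher (1.89%), with a median of -0.46, against 3.62% lower and 2.27% higher of 16671 genes measured in both states. Of 71 genes with at least 4-fold less signal in M2 than in M0 in both genotypes, 12 were lower in KO M2 (16.9%) and 3 higher (4.23%), with a median of -0.29, so that lower calls were also the more frequent ones there. The M2 arrays enter both the choice of these genes and the difference, so these shares are a description. WT M0 lies on slide 1 and WT M2 on slide 2, while KO M0 and KO M2 both lie on slide 2. In WT the cytokines and the slide therefore cannot be told apart, while the KO comparison lies within 1 slide. More genes were at least 4-fold up in WT than in KO, and the part of the slide in this was not tested. Il4i1, a secreted amino acid oxidase, had 479.1 in KO M2 and 2232 in WT M2 (-2.22). Il1rl1, the receptor for IL-33, had 28.7 in KO M2 and 131.4 in WT M2 (-2.20). Aldh1a2, which makes retinoic acid, was at -1.14, the prostacyclin receptor gene Ptgir at -1.31, and the leukotriene receptor gene Ltb4r1 at -1.55. The 2 genes that were higher were Slc5a11, a sodium-dependent inositol transporter (64.0 in KO M2, 24.5 in WT M2, 1.39), and Bex1 (1.37).

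**Figure D4:**
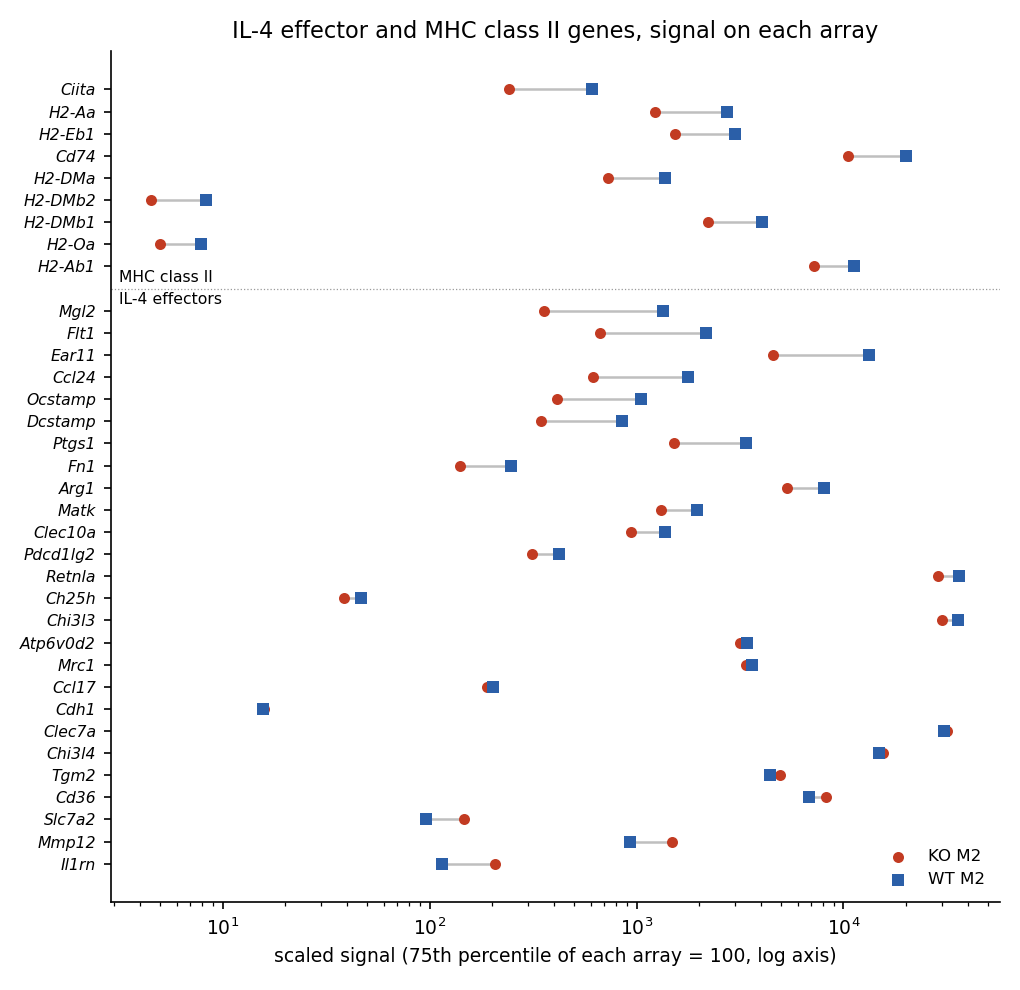
Scaled signal (75th percentile of each array at 100, logarithmic horizontal axis) of the measured MHC class II genes (upper 9 rows) and IL-4 effector genes (lower 26 rows) on the KO M2 array (red circles) and the WT M2 array (blue squares). All class II genes and 18 effector genes have the KO point on the left, and Mgl2 has the widest gap.

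Genes of MHC class II, which present peptides to CD4 T cells, were lower in KO as a group. All 9 measured genes were below WT, with a median of -0.92, while 43.8% of all genes were above WT. At least 2-fold lower were 2 of them, against 3.98% of all genes. Ciita, the coactivator that switches class II genes on, had 242.3 in KO M2 and 612.2 in WT M2 (-1.34). H2-Aa, an alpha chain gene, had 1228 in KO M2 and 2740 in WT M2 (-1.16), with -0.98 on a further probe. Cd74, the invariant chain, had 10540 in KO M2 and 20000 in WT M2 (-0.92). The beta chain genes H2-Eb1 and H2-Ab1 were at -0.95 and -0.64, and H2-DMa, H2-DMb2, H2-DMb1 and H2-Oa, which load or edit the bound peptide, at -0.92, -0.88, -0.87 and -0.66. H2-Ob, H2-Eb2 and the pseudogene H2-Ea-ps were not well above background. Factors that bind class II promoters (RFX, NF-Y and CREB subunits) had 0 calls among 11, with a median of -0.28. Genes of MHC class I and peptide loading had 0 calls among 14 and a median of -0.08. Dendritic cells also carry class II, and of 11 measured dendritic cell markers 11 were below WT and 1 was called, Batf3, with a median of -0.43. Their part in the class II difference was not tested. In M0 the class II median was -1.18 and in M1 -0.17, and Ciita had 36.8 in KO M0 against 193.3 in WT M0.

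The class II genes share a promoter element, the Y box, whose inverted CCAAT is bound by NF-Y. CCAAT, searched on both strands, was in the promoters of all 6 measured class II genes with an entry, but also in 42.8% of measured genes. It is shown in capitals for 3 of them, on GRCm38.p6.
H2-Aa, chr17:34287827-34287911, minus strand: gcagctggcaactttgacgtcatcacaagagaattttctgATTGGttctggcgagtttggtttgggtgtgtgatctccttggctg
H2-DMb1, chr17:34153090-34153174, plus strand: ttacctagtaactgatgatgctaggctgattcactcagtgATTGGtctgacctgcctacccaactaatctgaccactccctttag
H2-Oa, chr17:34092296-34092378, plus strand: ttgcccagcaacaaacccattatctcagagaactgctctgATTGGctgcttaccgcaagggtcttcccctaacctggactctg

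The genes furthest above WT included several with no place in these lists. 1700007K13Rik, a gene of unassigned function here, had 120.5 in KO M2 and 3.16 in WT M2 (5.26), and was also higher in KO M0 (51.7, against 3.04 in WT M0). Rhox5, an X-linked homeobox gene of the reproductive tract, had 66.0 in KO M2 and 4.23 in WT M2 (3.97), while the 3 other measured Rhox genes were not higher. Ddit4l, an inhibitor of mTORC1, had 152.6 in KO M2 and 11.8 in WT M2 (3.70), and its relative Ddit4 had 358.5 and 100.6 (1.83). Slc23a3, Dyrk3, a kinase gene, and Arvcf, a catenin gene, were at 3.50, 3.47 and 2.61. Cd5l, a secreted scavenger receptor of macrophages that is known as an inhibitor of apoptosis, had 1590 in KO M2 and 191.5 in WT M2 (3.05), and it was also higher in KO M0 (3775, against 849 in WT M0) and in KO M1 (1139, against 205.1 in WT M1). Mx1, an interferon-induced GTPase, had 86.7 in KO M2 and 13.3 in WT M2 (2.71) and was the only call among 26 type I interferon genes, whose median was -0.04. NAP012158-001, LOC101056633 and NAP114426-1, which carry no gene symbol, complete the 15 highest with Pmaip1, Gdf15, Gtse1 and Hist1h2bq. Cd80, a costimulatory ligand, was also called (48.8 in KO M2, 15.7 in WT M2, 1.63). Where the WT M2 array was not well above background, the largest bounds were for Zfp365, at least 17.6-fold higher in KO M2, Aloxe3, a lipoxygenase gene (at least 11.0-fold), and Rel, an NF-kB subunit (at least 6.10-fold). AK036173, ENSMUST00000103420, Irak1bp1, 2700054A04Rik and AK037005 followed, each at least 4.41-fold higher. Rel and AK036173 were well above background on KO M2 alone of the 6 arrays. Each of these bounds sets the bright signal against the lowest signal found among well-measured probes of the dim array, or against the dim probe's own signal where that was higher.

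The genes furthest below WT fell into several kinds. S100a9, a calcium-binding protein of neutrophils and monocytes, had 365.2 in KO M2 and 2227 in WT M2 (-2.61). Tmem176b and Tmem176a, neighbouring ion channel genes of myeloid cells, had 65.9 in KO M2 and 389.9 in WT M2 (-2.56), and 42.7 in KO M2 and 244.8 in WT M2 (-2.52). All 3 were lower in KO in M0 as well, with S100a9 at 1080 in KO M0 and 6804 in WT M0. Aqp3, a water and glycerol channel, had 6.84 in KO M2 and 39.3 in WT M2 (-2.52), and the urea transporter gene Slc14a1 had 5.13 and 29.1 (-2.51). The neutrophil granule genes Ltf and Ngp were at -2.50 and -2.49. Uhrf1, Mxd3 (-2.42, with -0.69 on a further probe) and Dscc1 of the cell cycle, Glipr1l1, Necab1, Gm9292 and Foxq1 make up the remainder of the 15 lowest with Foxo1. Where the KO M2 array was not well above background, bounds could be given for Gja10, at least 5.65-fold lower in KO M2, the iron-binding neutrophil gene Lcn2 (at least 5.24-fold), Prg2, the eosinophil major basic protein (at least 5.03-fold), and Thy1, a surface marker of T cells and fibroblasts (at least 4.33-fold). The bounds of 1700123L14Rik, 2610027F03Rik, Kcnc1 and Cyp2j11 were 5.17-fold, 4.59-fold, 4.53-fold and 4.31-fold. Of these, 2610027F03Rik and Kcnc1 were well above background on WT M2 alone of the 6 arrays.

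Genes of macrophage identity were mostly not called. Of 22 measured identity genes 1 was called, the haemoglobin scavenger receptor Cd163 (3.08 in KO M2, 11.5 in WT M2, -1.90), with a median of -0.19. Emr1, which encodes F4/80, had 13780 in KO M2 and 16490 in WT M2 (-0.26), Csf1r had 11200 and 16750 (-0.58), and Cd68 had 14140 and 10760 (0.39). Markers of neutrophils, monocytes and stromal cells had more lower than higher calls in KO M2. Among all genes 3.98% were called lower and 2.27% higher. Neutrophil granule and S100 genes had 5 of 13 at least 2-fold lower and 0 higher, and 5 more (Lcn2, Camp, Elane, Chi3l1 and Retnlg) were well above background on WT M2 alone. Their summed scaled signal was 1036 in KO M2 and 3412 in WT M2. Monocyte and progenitor genes had 5 of 15 lower, among them Ccr2, the receptor that brings monocytes from marrow (12.1 in KO M2, 58.2 in WT M2, -2.27), F13a1 (-2.30) and Ly6c2 (-1.51). Stromal and fibroblast genes had 9 of 20 lower (3 with normexp correction), among them Col1a1 (28.2 in KO M2, 99.8 in WT M2, -1.82) and Sparc (91.5 and 213, -1.22). Of 4 called stromal genes with a further probe, only 2 kept the sign on it. Col3a1 was at -1.40 with 0.14 on its further probe, and Col5a1 at -1.03 with 0.18. The summed signal of the stromal list was 9219 in KO M2 and 7290 in WT M2, of which Vim, which macrophages also express, made up 6355 and 3551. In M0 the medians of the neutrophil, monocyte and stromal lists were -1.06, -0.82 and -1.42, and in M1 they were 0.06, -0.69 and -0.47. Called members of the B cell and the T and NK cell lists were Cd79b (-1.64) and Nkg7 (-1.27), and the mast cell, erythroid and liver lists had 0 calls in M2. The part of these cells in the differences above was not tested. The WT M0 array stood apart in the liver list. The summed signal of its 9 measured genes was 2490 on WT M0 and 68.5 on KO M0. It was 72.8 on KO M2, 87.3 on WT M2, 208.8 on KO M1 and 52.3 on WT M1. The liver median in M0 was -5.26. All M0 differences given here are taken against that WT M0 array, and the source of its liver signal was not tested. The Y-linked genes Ddx3y, Kdm5d and Eif2s3y were well above background on both arrays and Xist on neither.

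Other pathways showed smaller shifts. The 24 sterol synthesis genes were all below WT, with a median of -0.34. Of 24 genes of the NRF2 antioxidant response 23 were above WT, with Gclm, a subunit of the enzyme that starts glutathione synthesis, as the only call (281.1 and 132.6, 1.08, with 0.39 on a further probe) and a median of 0.23. Among 15 complement genes 4 were lower (1 with normexp correction) and 0 higher, while 3.98% of all genes were called lower. The 4 were C3 (1373 in KO M2, 3655 in WT M2, -1.41), Cfb (-1.25), Serping1 (-1.11) and C1qa (3983 and 8529, -1.10). The chaperone genes Hspa1a (426.7 in KO M2, 176.2 in WT M2, 1.28), Hspa1b (1.14) and Hspa8 (1.14) were higher, though a further Hspa8 probe gave -0.06. Of the ATF4 list, Sesn2, Ddit4, Vldlr (1.56, with 0.53 on a further probe) and Trib3 (1.05, with -0.14 on a further probe) were higher and the serine synthesis gene Psat1 was lower (107.2 and 247.6, -1.21). The lipoprotein gene Apoc1 was at -1.79, the cytokine gene Il10 at -1.14 and Tnfsf12 at 1.15. Genes with housekeeping functions lay near 0, with medians of -0.03 for 65 ribosomal protein genes and -0.13 for 82 subunits of oxidative phosphorylation. The exceptions among them, Rpl30 (1.24), Rps19 (1.05, with 0.28 on a further probe) and Uqcrb (1.44), had their lowest or next to lowest signal of the 6 arrays on WT M2.

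How far the calls recur in the other pairs differed by direction. Of the 379 higher genes measured in M0, 84 were also at least 2-fold higher there (22.2%, against 5.53% of all genes in M0), and 7 were 2-fold lower. Of the 361 measured in M1, 71 were higher (19.7%, against 9.14%), and 2 lower. Of the lower genes, 164 of 603 were also lower in M0 (27.2%, against 3.73%), but 119 were at least 2-fold higher there (19.7%). In M1, 47 of 554 were lower (8.48%, against 1.07%) and 158 were higher (28.5%). Among the 708 lower genes, 199 were at least 2-fold brighter on WT M2 than on every other array, and 19 were at least 2-fold dimmer on KO M2 than on every other array. The lower calls therefore lean on the WT M2 array more than on the KO M2 array. Among the 403 higher genes, 52 were at least 2-fold dimmer on WT M2 than on every other array, and 41 brighter on KO M2.

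Genes that were 2-fold apart in opposite directions in different pairs were mostly of the lower kind, with 171 lower in KO M2 and higher in M0 or M1, and 9 the other way round. Foxq1, a forkhead factor gene, had 357.2 in KO M2 and 2297 in WT M2 (-2.68), against 549.4 in KO M0 and 120.4 in WT M0 (2.19). Gm9292 had 209.7 in KO M2 and 1772 in WT M2 (-3.08), against 394.1 in KO M0 and 41.5 in WT M0 (3.25). In 128 of the 171 genes both slide 1 arrays, WT M0 and WT M1, were dimmer than every array of slide 2. All 171 were picked for a KO M0 or KO M1 signal above that of its WT array on slide 1. Dim slide 1 arrays thus follow in part from the choice, and the share among all genes was not counted.

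**Figure D5:**
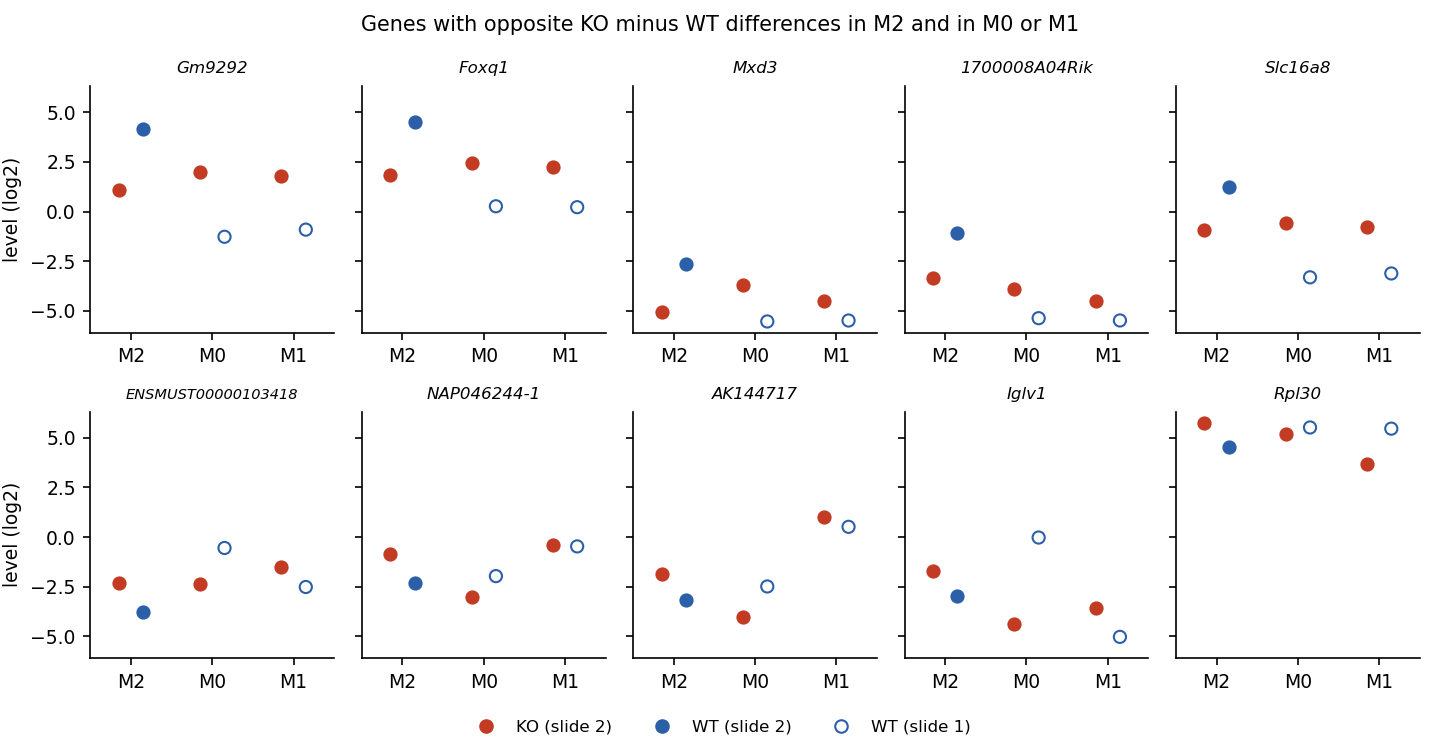
Level (log2, 75th percentile of each array at 0, vertical axis) of 10 genes that were 2-fold apart the opposite way in M0 or M1, on the 6 arrays, with KO in red left of WT in blue within each state, and open circles for the arrays of slide 1. In the upper row, the 5 of these genes furthest below WT in M2, the WT M2 point is the highest and the open circles are the lowest; the lower row shows the 5 of these genes furthest above WT in M2.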

How the data were processed

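RNA of 6 macrophage samples was measured on 1-colour Agilent 4x44K mouse arrays, and groups follow the labels. The authors deposited scanner files with spot intensity values that, per the file headers, Agilent Feature Extraction 10.7.3.1 wrote; its processed signal has background and spatial trend removed and no scaling between arrays. They also deposited a table of log2 values of the same arrays, used as an alternative. Its KO M2 and WT M2 columns had medians of 5.41 and 5.39 and followed the log2 signal of their own arrays (r of 0.9998 and 0.9999 across probes), and its centring is not stated. Control spots and outlier spots were dropped, the spots of each probe were averaged, and the array's 75th percentile was subtracted on the log2 scale. It was 591.9 on KO M2 and 516.4 on WT M2 before scaling. A gene took its probe with the highest mean over 6 arrays, well above background in at least 0.5 of its spots on both M2 arrays. Named genes were the FoxO genes and Lyz2, the 15 highest and 15 lowest, the 8 highest bounds each way, called members of 52 gene lists (up to 6 a direction), all members of the class II and IL-4 lists, and the 5 largest opposite genes each way. Members and lists were chosen with earlier results of these data known. List members beyond these numbers, and Il4i1, Il1rl1, Aldh1a2, Ptgir, Ltb4r1, Slc5a11, Bex1 and Slc35e3, were chosen after their values were seen. Gene symbols came from the files and a RefSeq table (GRCm38.p6): 27645 probes were named by accession, 5582 by symbol and 471 by synonym, and 7439 had no match. Probe coordinates are on mm9. Tools were Python 3.11.15, pandas 2.3.3, R 4.3.3 and limma 3.58.1, the last for quantile, cyclic loess and normexp alternatives (offset 50). With 1 array a side no test was run, and arrays limit the precision by their number. Alternatives were median centring, quantile, cyclic loess, normexp, the authors' table, 2 other probe rules, 2 other filters and outlier spots kept.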

Additional observations from a re-analysis of the deposited data

Results flagged for a closer look

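Genes measured on all 6 arrays are given here where the KO minus WT difference was at least 2-fold one way in M2 and at least 2-fold the other way in M0 or M1. There were 171 such genes lower in KO M2 and 9 higher in KO M2. Each value compares single arrays, and the difference between the pairs was not tested. Differences below are log2 values.

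Of these genes, the 5 furthest below WT in M2 were Gm9292, Foxq1, Mxd3, 1700008A04Rik and Slc16a8. Gm9292 was at -3.08 in M2, 3.25 in M0 and 2.69 in M1. Foxq1, a forkhead gene, was at -2.68 in M2, 2.19 in M0 and 2.04 in M1. Its scaled signals were 357.2 in KO M2 and 2297 in WT M2, 549.4 in KO M0 and 120.4 in WT M0, and 478.2 in KO M1 and 116.6 in WT M1. The KO signals thus lay close together while the WT signals did not. Mxd3, a MYC network repressor gene, was at -2.42 in M2, 1.85 in M0 and 1.00 in M1, while a further Mxd3 probe gave -0.69 in M2. 1700008A04Rik (now Smim23) was at -2.27 in M2 and 1.47 in M0, and Slc16a8, a lactate transporter gene, was at -2.13 in M2 and 2.74 in M0. In 128 of the 171 genes the 4 arrays of slide 2 were all brighter than the 2 arrays of slide 1, WT M0 and WT M1. This follows in part from the choice of genes with KO above WT in M0 or M1. The share among all genes was not counted, and the part of the slide was not tested.

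Of the 9 genes that were higher in KO M2, the 5 furthest above WT were ENSMUST00000103418 (1.48 in M2, -1.83 in M0), NAP046244-1 (1.47 in M2, -1.06 in M0), AK144717 (1.30 in M2, -1.56 in M0), the immunoglobulin light chain segment Iglv1 (1.24 in M2, -4.38 in M0) and Rpl30 (1.24 in M2, -1.80 in M1). For Iglv1 the WT M0 array stood apart from the other 5.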

How the results depend on the processing

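Under 10 alternative settings all 166 named genes past the 2-fold rule kept their sign where the setting held them, and 0 to 59 fell below 2-fold. The 59 came with normexp background correction and quantile normalization, which gave 173 genes higher and 208 lower in KO M2; the cause was not tested. Without a filter on dim probes 1076 genes were higher and 1661 lower. The other 8 settings gave 352 to 504 higher and 528 to 719 lower. The Foxo1 difference ranged from -2.79 to -2.37, at -2.37 with normexp and at -2.79 as the mean of its probes. The p53 target genes had 18 to 20 members at least 2-fold higher under the 10 settings, mitosis genes 8 to 20 lower (8 with normexp), DNA replication genes 9 to 12 lower, class II genes 2 lower, and IL-4 effectors 7 lower. Complement and stromal genes fell to 1 and 3 lower with normexp. Of 520 medians of gene lists under the alternatives, 478 moved by less than the spot SD and 42 moved further. Sign turns were counted only where the main median was at least the spot SD from 0 and the new one did not round to 0.00. By that count 3 turned sign. They were the G1 cyclins and CDK inhibitors with the mean of all probes, and the CXC chemokines and receptors with normexp correction and with genes well above background on all 6 arrays. Lists with main medians nearer 0 turned sign as well, such as MHC class I (from -0.08 to at most 0.02) and ribosomal proteins (from -0.03 to at most 0.06). No paired analysis was possible because each group has 1 array and the labels give no replicate numbers, and for the same reason no replicate could be left out. A gene not well above background on an array has only a bound there, and 1 array for each group limits the precision of every difference.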
